A study of Rattus norvegicus with 12 samples.

Results

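Knockdown of Slc39a2 was examined in neonatal rat ventricular myocytes (NRVMs) under hypertrophic stimulation. Slc39a2 encodes ZIP2, a plasma membrane zinc importer of the SLC39 family. The comparison set 3 samples transfected with siRNA against Slc39a2 and treated with phenylephrine (siSlc39a2 PE) against 3 samples transfected with a negative control siRNA and treated in the same way (siNeg PE), 6 of the 12 samples in the series. The members are all expressed genes, 13967 of the 18483 in the count table. The other samples were siNeg and siSlc39a2 cells without PE, 3 of each.

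All cells came from Sprague-Dawley neonates, and every group, controls included, was transfected. By the labels PE was given for 36 h, beginning 12 h after transfection (the study's methods give a longer exposure), and each group was sequenced in 3 independent biological replicates. Only 1 siRNA sequence against Slc39a2 was used, so effects of lower Slc39a2 and effects of that siRNA itself cannot be told apart. The cells are a primary culture and not a line. Myocytes were parted from mesenchymal cells on a Percoll gradient, and transcripts of fibroblast and other cell type markers were still detected in the samples.

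Phenylephrine activates alpha1-adrenergic receptors, which signal through Gq and calcium and drive cardiomyocyte growth together with a fetal gene programme that includes the natriuretic peptides. Innate immune signalling starts from sensors of foreign or misplaced nucleic acid. These switch on interferon regulatory factors and NFkB, and the interferon that is made acts through its receptor, the JAK kinases and STAT proteins to raise a large set of antiviral genes. Zinc is a structural ion of many transcription factors and enzymes, and its entry is balanced by SLC30 exporters and by metallothioneins.

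Each PE sample held between 26761034 and 28603854 expected counts, which are read counts estimated per gene that need not be whole. Levels are given as normalised CPM, counts of a gene relative to its library's total after TMM scaling. Fold changes are on the log2 scale, from edgeR's quasi-likelihood fit of all 12 samples with n = 3 per group, and p-values were adjusted over all 13967 genes. The standard error (SE) beside them was derived as the absolute log2 fold change over the square root of that test's F statistic. A gene is said to have risen or fallen where its adjusted p was under 0.05. "Past both thresholds" means that it also changed over 2-fold. Counts of a gene that shares reads with another locus are fractional, and such genes are marked as having shared reads, since the division of those reads is uncertain.

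Slc39a2 itself was at 3.5, 6.96 and 6.68 CPM in the siNeg PE samples and at 1.16, 0.862 and 1.38 CPM in the siSlc39a2 PE samples. The groups did not overlap, which held for 63.5% of all genes tested, and replicate 1 of siNeg PE was the lowest of its group. The log2 fold change was -2.33 ± 0.38 (adjusted p = 0.000224), 5.04-fold lower. Without PE the knockdown lowered it by nearly the same amount (log2 fold change -2.35 ± 0.46, adjusted p = 0.00098), and PE alone raised it in siNeg cells (1.47 ± 0.36, adjusted p = 0.00541). The comparison of PE in siNeg cells shares the siNeg PE samples with that of knockdown under PE, so its values, here and for Nppb and Pnoc, are not independent of the knockdown effect.

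Knockdown under PE raised 842 genes past both thresholds (6.03% of those tested) and lowered 779 (5.58%). With limma on log2(FPKM + 1) these counts were 362 and 312. At adjusted p under 0.05 alone, 4072 genes were higher (29.2%) and 3929 lower (28.1%), so most expressed genes moved, the majority of them by less than 2-fold. These are the shares against which the counts of each gene list are to be read. The median log2 fold change over all genes was 0.01. Large changes were mostly upward: 185 genes rose over 8-fold and 80 over 32-fold, while 38 fell over 8-fold. On the first principal component of the 6 PE samples, which held 75.7% of their variance, the groups were fully separated.

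**Figure D1:**
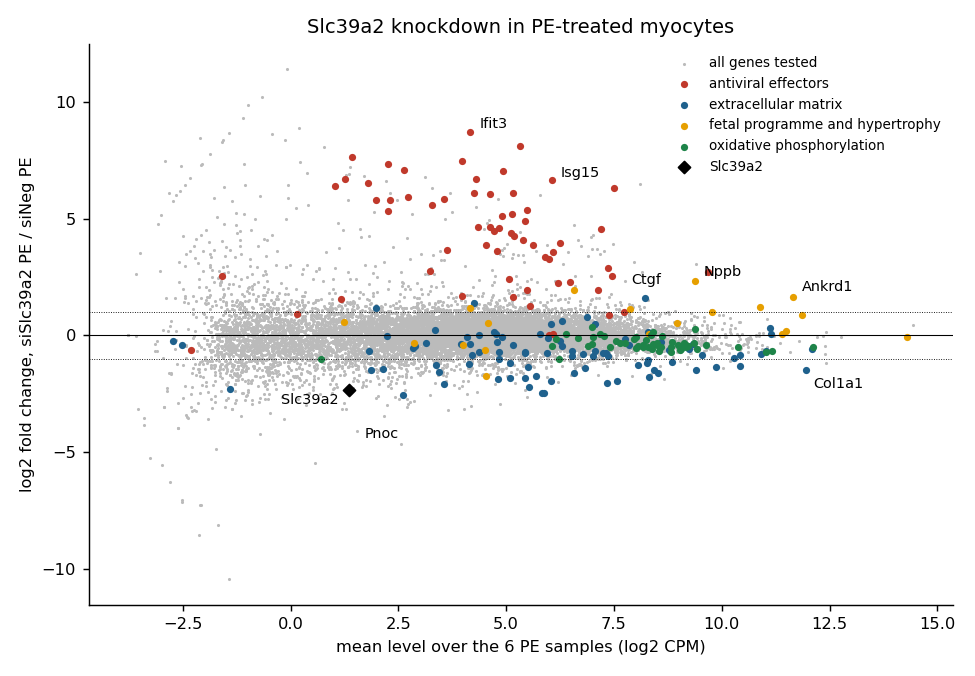
Log2 fold change of siSlc39a2 PE over siNeg PE (vertical axis) against the mean level over the 6 PE samples in log2 CPM (horizontal axis), 1 point per gene tested. Antiviral effectors (red) lie up to 8.72 above 0, most matrix genes (blue) lie below 0, and the genes of oxidative phosphorylation (green) have a median of -0.41. Dotted lines mark a 2-fold change.

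The 10 genes that rose most were Ifit3, Trim30, Gbp1, LOC102555634, Rsad2, MGC105567, Ifi44l, Rtp4, Isg15 and Herc6. They were taken from genes with a mean level above 1 log2 CPM, no shared reads and no overlap between the groups. A further 7 genes with shared reads, Mx1 and Gbp4 among them, were set aside. Ifit3, which binds foreign RNA with its IFIT partners, rose from 0.663, 0.704 and 1.21 to 303, 359 and 428 CPM, 422-fold (log2 fold change 8.72 ± 0.20, adjusted p = 3.45e-12). Isg15, a ubiquitin-like modifier, went from 6.71, 7.18 and 6.16 to 721, 650.4 and 625 CPM (6.64 ± 0.11, adjusted p = 1.84e-13). Both were low in every siNeg PE sample and far higher in every siSlc39a2 PE sample. That the groups did not overlap was a condition of their choice.

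The interferon programme was followed from its sensors to its effectors. Of 11 cytosolic RNA and DNA sensors, all tested, 9 rose past both thresholds, against 6.03% of all genes. Ddx58 (RIG-I), a sensor of double-stranded RNA ends, was at 37.6, 37.2 and 39.8 CPM in siNeg PE and at 463, 474 and 566 CPM in siSlc39a2 PE, with a log2 fold change of 3.71 ± 0.10 (adjusted p = 7.76e-12). Ifih1 (MDA5), which senses longer double-stranded RNA, was at 7.15, 8.76 and 9.76 and at 94.4, 110.1 and 184 CPM (3.92 ± 0.25, adjusted p = 5.38e-08). Its replicate 3 was the highest of the knockdown group and still left a wide gap to the controls. Zbp1, a sensor of Z-form nucleic acid, had 2 reads over the 3 siNeg PE samples together and reached 13.4, 12.3 and 15 CPM with knockdown (adjusted p = 1.21e-09).

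Interferon genes were scarce. Ifnb1, the beta interferon, had no read in any siNeg PE sample and was at 1.72, 1.17 and 1.42 CPM with knockdown, at least 13.2-fold higher against a floor of 3 counts per library (adjusted p = 2.87e-06). Ifna4 likewise went from 0 to 0.522, 0.31 and 0.364 CPM, at least 3.67-fold higher (adjusted p = 0.000127). Of the 7 interferons listed these 2 passed the filter on low counts. With no read in siNeg PE, they passed it only through other groups, and only a rise could have been called. Among 8 interferon regulatory factors tested, 6 rose and 5 of them past both thresholds, against 29.2% and 6.03% of all genes. Irf7, the factor that amplifies interferon production, was at 31.6, 27.5 and 28.2 CPM and rose to 2854, 2818 and 2102 CPM (6.48 ± 0.15, adjusted p = 3.92e-12), whereas Irf3, which is present before infection and acts once phosphorylated, was at 25.5 to 28.2 CPM in the controls and at 28.9 to 31.9 CPM with knockdown (0.17 ± 0.072, adjusted p = 0.0569, shared reads). Irf1 and Irf9 rose by 1.58 and 2.01 on the log2 scale (Irf9 with shared reads), and Irf3 was past the threshold without siSlc39a2 PE replicate 1 (0.0491).

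Downstream of the receptor the list of 16 genes split by role. The 6 receptor chains moved little: 4 rose, none past 2-fold, against 29.2% and 6.03% of all genes. Ifnar1 was at 0.15 ± 0.057 (adjusted p = 0.0362) and Ifnar2 at 0.31 ± 0.073 (adjusted p = 0.0027, shared reads). The call for Ifnar1 was lost without any 1 of the 6 PE samples, with adjusted p between 0.0505 and 0.111. The signal transducer Stat2 rose from 104, 96.8 and 91.3 to 499, 463 and 488 CPM (2.31 ± 0.069, adjusted p = 2.76e-11). Stat3, which serves the interleukin 6 family, fell (-0.23 ± 0.056, adjusted p = 0.00347). Among the feedback inhibitors, Socs1 rose by 2.65 and Usp18, which switches off the type I receptor, by 4.71 (shared reads). Socs3, the inhibitor of interleukin 6 type signalling, fell by 0.45 on the log2 scale (adjusted p = 0.000162). The knockdown effect on Socs3 was more negative with PE than without (difference -0.56).

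Antiviral effectors rose nearly as a whole. Of 64 listed, 62 were tested, 59 rose, 56 past both thresholds, and none fell, against 29.2% and 6.03% of all genes. The median log2 fold change was 4.42, and 24 of the 62 have shared reads. The 16 tested IFIT, ISG15 and OAS genes all passed both thresholds, Ifit3 among them. Rsad2 (viperin), which makes a chain-terminating nucleotide, went from 2.69, 2.29 and 2.97 to 286, 313 and 453 CPM (7.05 ± 0.23, adjusted p = 5.13e-11). Oas1a, a double-stranded RNA sensor enzyme, rose by 6.07 and the GTPase Mx1 by 8.08, both with shared reads. Bst2 (tetherin), which holds budding virus at the cell surface, rose by 4.66.

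Antigen presentation followed. Of the 25 tested genes for MHC class I molecules and peptide loading, 24 rose, 20 past both thresholds, and 1 fell. The shares over all genes were 29.2%, 6.03% and 28.1%. Of the 25, 19 have shared reads, 11 of the 12 heavy chain, light chain and regulator genes among them, so the division of their reads is uncertain. B2m, the light chain of every class I molecule, was at 245, 230.2 and 222 CPM and rose to 1900, 2068 and 1887 CPM (3.07 ± 0.091, adjusted p = 2.65e-11). The immunoproteasome subunit Psmb9 rose by 4.93, its partner Psmb8 by 5.84 (shared reads) and the peptide transporter Tap1 by 3.57 (shared reads). The 31 constitutive proteasome genes rose too, 24 of them, but with a median of 0.41 and only 1 past both thresholds. Psmb5, the constitutive subunit that Psmb8 replaces, was the gene of that list that fell (-0.35 ± 0.10, adjusted p = 0.00755; it was chosen after its values were seen). The gene that fell in the class I list was Cd74, the class II invariant chain (-1.96 ± 0.22, adjusted p = 1.1e-05, shared reads), also chosen after its values were seen.

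Chemokines and cytokines rose in 23 of 29 tested genes, 21 past both thresholds, and fell in 1. The shares over all genes were 29.2%, 6.03% and 28.1%. Cxcl10, the interferon-inducible attractant of T cells, went from 6.67, 6.51 and 7.34 to 402, 411 and 521 CPM (6.02 ± 0.16, adjusted p = 8.81e-12). Ccl2, the main attractant of monocytes, went from 24.5, 25.3 and 24.3 to 402, 425 and 441 CPM (4.10 ± 0.067, adjusted p = 1.84e-13), and its spread within groups was narrow. Ccl5 and Ccl4 rose from under 0.5 CPM in every control sample to between 9.42 and 17.5 CPM. Il6 stayed low, at 0.258, 0.317 and 0.0734 and at 0.671, 0.897 and 1.09 CPM (2.01 ± 0.47, adjusted p = 0.00302). Tnf did not pass the test (adjusted p = 0.0558), at 0, 0.352 and 0.11 CPM in the controls and 0, 4.42 and 3.82 CPM with knockdown, and its reads were shared. Il15 did not pass either (0.31 ± 0.18, adjusted p = 0.168), and the homeostatic chemokine Cxcl12 fell (-0.32 ± 0.12, adjusted p = 0.0303). Tnf was past the threshold without siSlc39a2 PE replicate 1 (0.0163), and Cxcl12 was not past it without siNeg PE replicate 1 (0.159), siSlc39a2 PE replicate 1 (0.0978) or siSlc39a2 PE replicate 2 (0.0774), with adjusted p in brackets.

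Of the 30 genes of the NFkB list 17 rose, 10 past both thresholds, and none fell, with a median of 0.46. The shares over all genes were 29.2%, 6.03% and 28.1%. The inhibitors that NFkB itself induces rose: Nfkbia (IkB alpha) from 21.5, 19.5 and 20.2 to 55.6, 53.8 and 52.8 CPM (1.40 ± 0.090, adjusted p = 5.85e-08) and Tnfaip3 (A20) by 1.65. The subunits moved little, with Nfkb1 at 0.50 ± 0.065 (adjusted p = 3.91e-05) and Rela at -0.12 ± 0.073 (adjusted p = 0.189). The adhesion molecules Vcam1 and Icam1, which bind leukocytes, rose by 2.98 (shared reads) and 1.15.

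Genes of lytic cell death rose in 9 of 15 tested, each past both thresholds, and fell in 1. The shares over all genes were 29.2%, 6.03% and 28.1%. Ripk3 and its substrate Mlkl, which together open the membrane in necroptosis, rose by 2.12 and 2.09, and the pore protein Gsdmd by 1.21. Casp1, which cleaves Gsdmd, rose from 0.0369, 0.0703 and 0.0734 to 1.27, 1.41 and 1.56 CPM. Apoptosis regulators were mixed, with 10 of 19 higher and 5 lower, against 29.2% and 28.1% of all genes. The BH3-only gene Pmaip1 (Noxa) rose by 1.80 and the anti-apoptotic Bcl2 by 1.01, whereas the BH3-only genes Bmf and Bcl2l11 (Bim) fell (-1.11 ± 0.10 and -1.06 ± 0.10). In the complement list 10 of 17 rose and 1 fell, against the same shares. Cfb, of the alternative pathway, rose from 0.7, 0.492 and 0.88 to 12.7, 13.8 and 12.2 CPM, while C3, the central component, fell from 13.3, 10.6 and 8.73 to 2.54, 2.59 and 2.84 CPM (-2.03 ± 0.16, adjusted p = 4.88e-07).

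Markers of immune cells did not rise as a group beside these genes. The summed level of 11 macrophage markers was 44.9 to 58.5 CPM in siNeg PE and 36.5 to 43.0 CPM in siSlc39a2 PE. Of 10 tested, 1 was higher and 3 lower, against 29.2% and 28.1% of all genes. The 4 lymphocyte markers in the table summed to 2.69 to 3.24 CPM in siNeg PE and to 0.982 to 1.52 CPM in siSlc39a2 PE, and 3 neutrophil markers summed to at most 0.147 CPM. The 10 cardiomyocyte markers summed to 46160 to 49100 CPM in siNeg PE and to 47310 to 51310 CPM in siSlc39a2 PE. Of the 10, 1 was higher and 4 lower, against the same shares of all genes. The 1 that rose was Actc1, with shared reads. It held 2.52% to 2.8% of all counts in the siSlc39a2 PE samples and so weighs heavily in the sum. Myh6 was among the 4 that fell, and the sum does not describe each marker.

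The promoters of the genes that rose were read for the interferon-stimulated response element, a site of interferon regulatory factors. The core searched was GAAA, any 2 bases and GAAA again, on both strands, in the 300 bases from 250 before to 50 after each RefSeq start (GRCr8). A promoter was found for 10832 of the 13967 genes tested (77.6%). The core stood in 42.3% of 130 promoters of genes that rose over 8-fold, in 7.26% of 482 that rose between 2-fold and 8-fold, in 2.25% of 578 that fell over 2-fold and in 2.3% of 9642 others. Over all promoters tested the share was 3.0%. In the antiviral effector list 27 of 50 promoters held it (54.0%), and in the matrix list 0 of 67.

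The 100 bases before the start are shown for 6 interferon-stimulated genes whose promoters hold the core, and for Nppb, which also rose and whose promoter holds none. They were chosen after the values were seen. Capitals mark the core on either strand, all sequences run 5′ to 3′ on the gene's strand, and the table's build is GRCr8.
Ifit3, chr1:241527226-241527325, plus strand: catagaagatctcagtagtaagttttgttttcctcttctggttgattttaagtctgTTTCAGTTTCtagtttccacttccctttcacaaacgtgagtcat
Irf7, chr1:205800024-205800123, minus strand: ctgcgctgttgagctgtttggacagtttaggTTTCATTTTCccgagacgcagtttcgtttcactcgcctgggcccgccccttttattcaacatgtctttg
Oas1a, chr12:41330366-41330465, plus strand: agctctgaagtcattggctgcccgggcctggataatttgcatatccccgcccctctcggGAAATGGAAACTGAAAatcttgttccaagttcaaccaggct
Isg20, chr1:142239959-142240058, plus strand: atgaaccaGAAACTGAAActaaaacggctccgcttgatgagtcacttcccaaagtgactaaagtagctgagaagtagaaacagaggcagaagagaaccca
Ifi44l, chr2:243328623-243328722, plus strand: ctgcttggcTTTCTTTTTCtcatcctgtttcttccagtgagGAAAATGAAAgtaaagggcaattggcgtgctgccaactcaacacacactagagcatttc
Samd9, chr4:32138959-32139058, minus strand: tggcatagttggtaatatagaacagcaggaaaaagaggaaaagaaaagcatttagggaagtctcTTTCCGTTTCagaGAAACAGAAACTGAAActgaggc
Nppb, chr5:163699908-163700007, plus strand: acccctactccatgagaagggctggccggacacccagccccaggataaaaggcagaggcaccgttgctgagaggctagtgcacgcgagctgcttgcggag

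The core began 44 bases before the start of Ifit3 and 69 bases before that of Irf7, and it occurred 2 times in Oas1a, where the copies overlap, 2 times in Ifi44l and 3 times in Samd9. Isg20, an RNA exonuclease, rose by 5.78 and Samd9, a restriction factor, by 5.90. The NFkB motif, GGG, any 2 bases and TTTCC on either strand, stood in 6.15% of promoters of genes over 8-fold higher, in 1.9% of those lower and in 1.74% of all tested. The metal response element, bound by the zinc sensor MTF1, was searched as TGCACNC or TGCGCNC and is short and common. It stood in 18.5% of promoters over 8-fold higher, in 36.0% of those lower and in 36.6% of all tested. A match describes letters in this window and not binding.

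**Figure D2:**
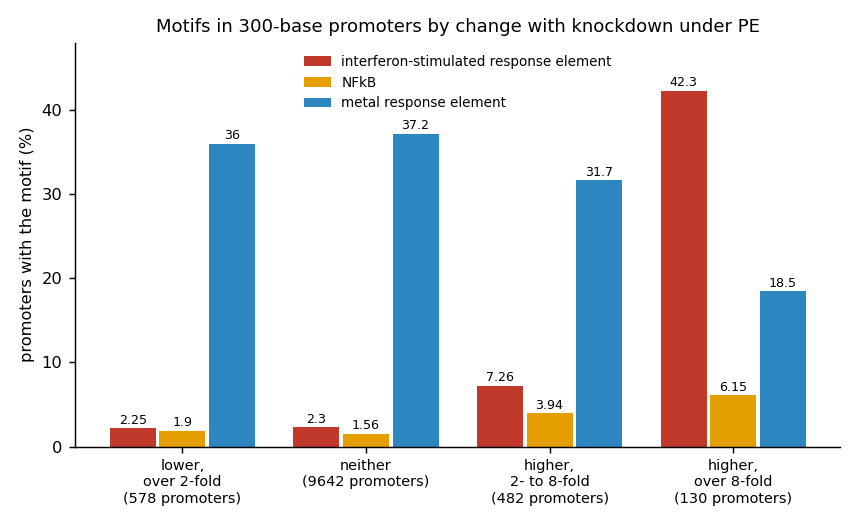
Share of 300-base promoters that hold each motif (vertical axis, percent), for genes grouped by their change with knockdown under PE (horizontal axis). The interferon-stimulated response element goes from 2.25% and 2.3% in the lower and remaining groups to 42.3% in genes over 8-fold higher, while the metal response element is in 18.5% there and in 36.0% of the lower group.

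Genes of the hypertrophic programme moved mainly upward, the natriuretic peptides among them. Of 19 tested fetal and hypertrophy genes 10 rose, 7 past both thresholds, and 4 fell, against 29.2% and 28.1% of all genes. Nppb, which encodes brain natriuretic peptide, was at 234, 296 and 369 CPM in siNeg PE and at 1623, 1527 and 1378 CPM in siSlc39a2 PE (2.33 ± 0.14, adjusted p = 4.19e-08), 5.03-fold higher on top of a log2 rise of 5.19 by PE alone in siNeg cells. Nppa, atrial natriuretic peptide, went from 2064, 2973 and 3257 to 5412, 5131 and 4822 CPM (0.89 ± 0.14, adjusted p = 0.000127). Ankrd1, a titin-associated stretch sensor, went from 1656, 1686 and 2101 to 5299, 5614 and 6339 CPM (1.66 ± 0.11, adjusted p = 9.54e-08). In none of these did the groups overlap, which held for 63.5% of all genes tested. For none of Nppb, Nppa and Ankrd1 did the knockdown effect with PE differ from that without PE at adjusted p under 0.05.

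Several genes of the sarcomere's stress response rose with them. Xirp2, an actin-binding protein of the intercalated disc, rose by 1.93 (adjusted p = 4.73e-05), and Fhl1, a LIM protein of the titin spring, from 988, 1268 and 1476 to 2896, 2874 and 2878 CPM (1.21 ± 0.11, adjusted p = 1.76e-06). Rcan1, a calcineurin inhibitor that calcineurin induces, rose by 1.12 and Csrp3 (muscle LIM protein) by 1.01. Other classic markers did not pass the test. Myh7, the slow myosin heavy chain, was at 21380, 19030 and 21670 and at 19650, 19660 and 19290 CPM (-0.08 ± 0.067, adjusted p = 0.307, shared reads), and Acta1, skeletal alpha-actin, at 2271, 2830 and 2847 and at 2912, 2685 and 2707 CPM (0.06 ± 0.089, adjusted p = 0.568, shared reads). Corin, the protease that activates the natriuretic peptides, fell (-1.75 ± 0.12, adjusted p = 7.37e-08, shared reads). Csrp3 and Corin were chosen after their values were seen.

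**Figure D3:**
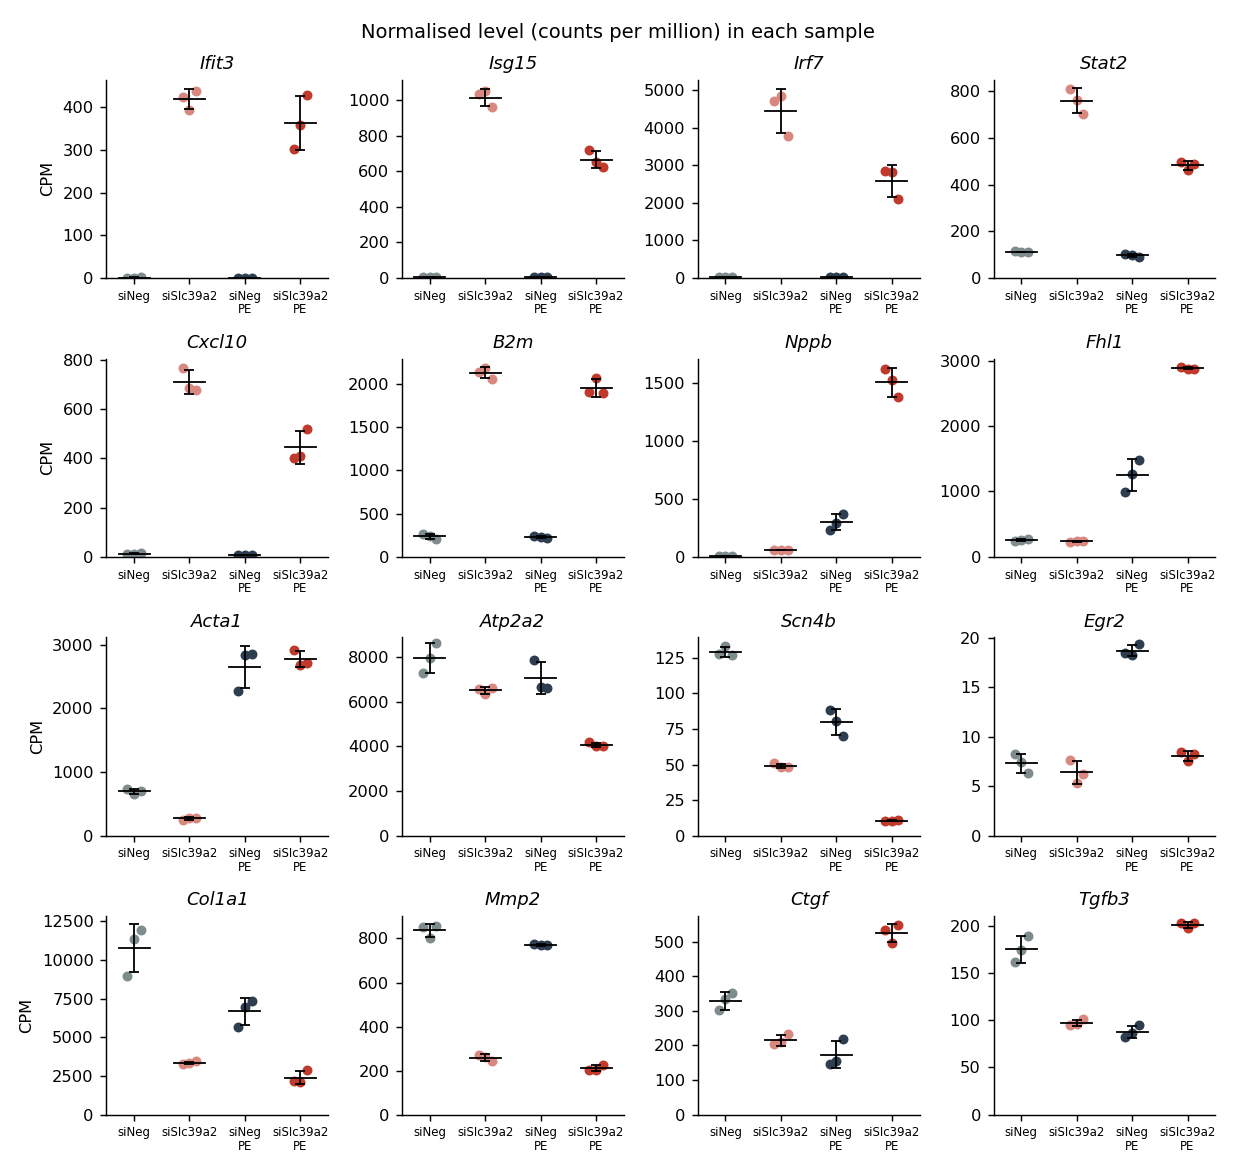
CPM of 16 genes in each of the 12 samples (points), with the mean and SD of each group of 3 (bars), every vertical axis from 0. Ifit3, Isg15, Irf7, Stat2, Cxcl10 and B2m are high in both knockdown groups; Nppb is highest with knockdown and PE together; Fhl1 is higher with knockdown under PE and at a similar level without; and Ctgf and Tgfb3 are lower with knockdown without PE and higher with PE.

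Of 28 sarcomere genes 8 rose and 10 fell, which is near the 29.2% and 28.1% of all genes. Myh6, the fast adult myosin heavy chain of the rodent heart, fell from 7997, 8094 and 8505 to 3655, 3867 and 3496 CPM (-1.16 ± 0.087, adjusted p = 2.69e-07, shared reads). The atrial light chains Myl4 and Myl7 fell, with log2 fold changes of -1.52 and -1.69. Actc1, cardiac alpha-actin, rose (0.44 ± 0.064, adjusted p = 8.72e-05, shared reads; its change is set to 0 by quantile normalisation of FPKM), and Tnnt2, the troponin that binds tropomyosin, did not pass the test (adjusted p = 0.189).

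Calcium handling and excitability genes were more often lower than higher. Of 26 calcium genes 11 fell and 3 rose, against 28.1% and 29.2% of all genes. Atp2a2 (SERCA2), the pump that returns calcium to the sarcoplasmic reticulum, fell from 7889, 6644 and 6619 to 4175, 4009 and 4031 CPM (-0.79 ± 0.080, adjusted p = 4.17e-06). Its inhibitor Pln was at -0.04 ± 0.12 (adjusted p = 0.815) and the release channel Ryr2 fell (-0.43 ± 0.15, adjusted p = 0.0287), though not past the threshold without siNeg PE replicate 2 (0.0645), siNeg PE replicate 3 (0.0972) or siSlc39a2 PE replicate 1 (0.0944). Hrc, a calcium-binding protein of the same store, and the fast-muscle pump Atp2a1 fell, with log2 fold changes of -1.29 and -2.11.

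Among 25 excitability genes 12 fell and 3 rose, against the same shares. The sodium channel beta subunit Scn4b fell from 88.5, 80.4 and 70.3 to 10.4, 10.6 and 10.8 CPM (-2.91 ± 0.086, adjusted p = 2.48e-11), while another beta subunit, Scn3b, rose from 6.3, 9.88 and 11.3 to 41.4, 51.9 and 48.9 CPM (2.37 ± 0.19, adjusted p = 5.56e-07). The repolarising channel Kcnh2 fell, with a log2 fold change of -1.01. Kcnd2, a pore of the transient outward current, fell (-2.48 ± 0.19, adjusted p = 3.14e-07, shared reads, chosen after its values were seen). Gja1 and Kcnj2 did not pass the test (adjusted p = 0.848 and 0.199), though Kcnj2 passed it without siSlc39a2 PE replicate 1 (0.0293). The cardiac transcription factors changed by small amounts: 2 of 22 rose and 8 fell, none past 2-fold. Over all genes 29.2% rose and 28.1% fell, with 6.03% and 5.58% past both thresholds. Gata4 was at 0.12 ± 0.067 (adjusted p = 0.151), Nkx2-5 at -0.22 ± 0.10 (adjusted p = 0.0691) and Myocd higher at 0.81 ± 0.15 (adjusted p = 0.000458). Nkx2-5 was past the threshold without siNeg PE replicate 3 (0.0397) or siSlc39a2 PE replicate 1 (0.0102).

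The receptors for the stimulus itself changed in opposite directions. Adra1b, an alpha1 receptor, fell from 115, 91.6 and 81.6 to 50.5, 45.5 and 40.9 CPM (-1.07 ± 0.12, adjusted p = 1.4e-05), whereas Adra1a rose from 32.9, 39 and 42.7 to 47.1, 56.7 and 60.7 CPM (0.52 ± 0.12, adjusted p = 0.00224). Adrb1, the main beta receptor of the heart, fell (-0.63 ± 0.080, adjusted p = 3.01e-05). Edn1, the precursor of endothelin 1, another Gq agonist, rose by 1.47 and the endothelin receptor Ednrb fell by 2.50 on the log2 scale. Rgs2, which limits Gq signalling, rose by 0.96. In this list 6 of 28 genes rose and 11 fell, against 29.2% and 28.1% of all genes.

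Immediate early genes and MAPK phosphatases, the first transcriptional answer to such receptors, changed in both directions. Of 29 genes, 14 were higher and 10 lower, against 29.2% and 28.1% of all genes. Atf3, a stress-induced repressor, rose by 1.81 (shared reads), Fos by 0.58 (shared reads), Myc by 0.56 and Dusp6 by 0.96. Egr1 fell (-0.52 ± 0.090, adjusted p = 0.000337). Egr2 fell from 18.5, 18.3 and 19.3 to 8.43, 7.52 and 8.22 CPM (-1.21 ± 0.13, adjusted p = 7.23e-06), close to the 6.3 to 8.21 CPM of siNeg cells without PE. Egr3, Dusp2 and Dusp5 also fell, with log2 fold changes of -1.29, -1.71 and -1.38.

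Most extracellular matrix genes fell. Of 91 tested genes 66 fell, 34 past both thresholds, and 7 rose, with a median of -0.74. The shares over all genes, for this list and its parts, were 28.1%, 5.58% and 29.2%. Of the 16 fibrillar and beaded collagens 15 fell and none rose. Col1a1, the main collagen of the cardiac interstitium, fell from 5694, 6944 and 7370 to 2176, 2123 and 2856 CPM (-1.48 ± 0.13, adjusted p = 1.48e-06), and Col3a1 from 1787, 2276 and 2450 to 762, 777 and 1129 CPM (-1.29 ± 0.17, adjusted p = 5.37e-05). The log2 fold change was -2.55 for Col8a2, -1.93 for elastin (Eln), -2.47 for the latent TGF-beta binding protein Ltbp4 and -2.22 for fibulin 1 (Fbln1). Basement membrane genes fell in 15 of 18 and rose in 1, and Col4a1, a chain of its collagen network, was among those that fell (-0.64 ± 0.084, shared reads). In bulk samples fewer cells of a type and less RNA per cell cannot be told apart.

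The summed level of fibroblast markers moved with the matrix, but most of that sum is Col1a1 and Col3a1, so it largely repeats the matrix result. The 12 markers, of which 6 also stand in the matrix list, summed to 9257 to 11850 CPM in siNeg PE and 3648 to 5039 CPM in siSlc39a2 PE. Of the 12, 9 were lower and 1 higher, against 28.1% and 29.2% of all genes. The other markers were not lowered alike: Dpt, Fap and Thy1 fell, with log2 fold changes of -1.95, -1.46 and -1.17, while Tcf21, a transcription factor of cardiac fibroblasts, rose from 15.9, 17.6 and 18.5 to 26.1, 23.5 and 24.6 CPM (0.51 ± 0.077, adjusted p = 0.000117), and the receptors Pdgfra (-0.28 ± 0.12, adjusted p = 0.0577) and Ddr2 (0.15 ± 0.17, adjusted p = 0.474) did not pass the test. Pdgfra was past the threshold, lower, without siNeg PE replicate 1 (0.0449) or siSlc39a2 PE replicate 3 (0.0222). These 6 were chosen after their values were seen. Epicardial markers fell too, 4 of 5 against 28.1% of all genes, from a sum of 24.9 to 31.8 CPM to 10.8 to 12.4 CPM. The part of cell composition in the matrix result was not tested.

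Matrix turnover genes fell with the matrix, 12 of 17 lower and 1 higher, against 28.1% and 29.2% of all genes. Mmp2, the gelatinase of the cardiac interstitium, was at 773, 768 and 769 CPM and fell to 203, 202 and 226 CPM (-1.87 ± 0.065, adjusted p = 1.1e-10). Ctgf, a matricellular target of TGF-beta and YAP, rose against its list from 146, 156 and 218 to 535, 497 and 548 CPM (1.60 ± 0.13, adjusted p = 4.25e-07).

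TGF-beta and BMP signalling genes rose in 18 of 30 and fell in 7, against 29.2% and 28.1% of all genes. The ligands split: Tgfb2 rose from 38.1, 54.8 and 61.2 to 134, 149 and 184 CPM (1.60 ± 0.17, adjusted p = 5.24e-06) and Tgfb3 from 82.1, 86.2 and 94.7 to 203, 197 and 203 CPM (1.20 ± 0.071, adjusted p = 2.74e-08), whereas Tgfb1 fell from 71.6, 71.9 and 71.7 to 35.8, 29.9 and 34.8 CPM (-1.10 ± 0.095, adjusted p = 9.68e-07, chosen after its values were seen). Bmp2 and the activin antagonist Fst rose 4.01-fold and 4.02-fold. Id1, a BMP-responsive inhibitor of transcription, rose by 1.19 and the inhibitory Smad7 by 0.78. The insulin-like growth factor axis was mostly lower, with 9 of 15 genes lower and 3 higher, against 28.1% and 29.2% of all genes. Igf1 was at -0.69 ± 0.16 and Igf2 at -1.11 ± 0.15. The binding protein Igfbp5 fell from 13.6, 16.2 and 14 to 0.895, 1.31 and 1.82 CPM (-3.44 ± 0.20, adjusted p = 1.83e-08).

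**Figure D4:**
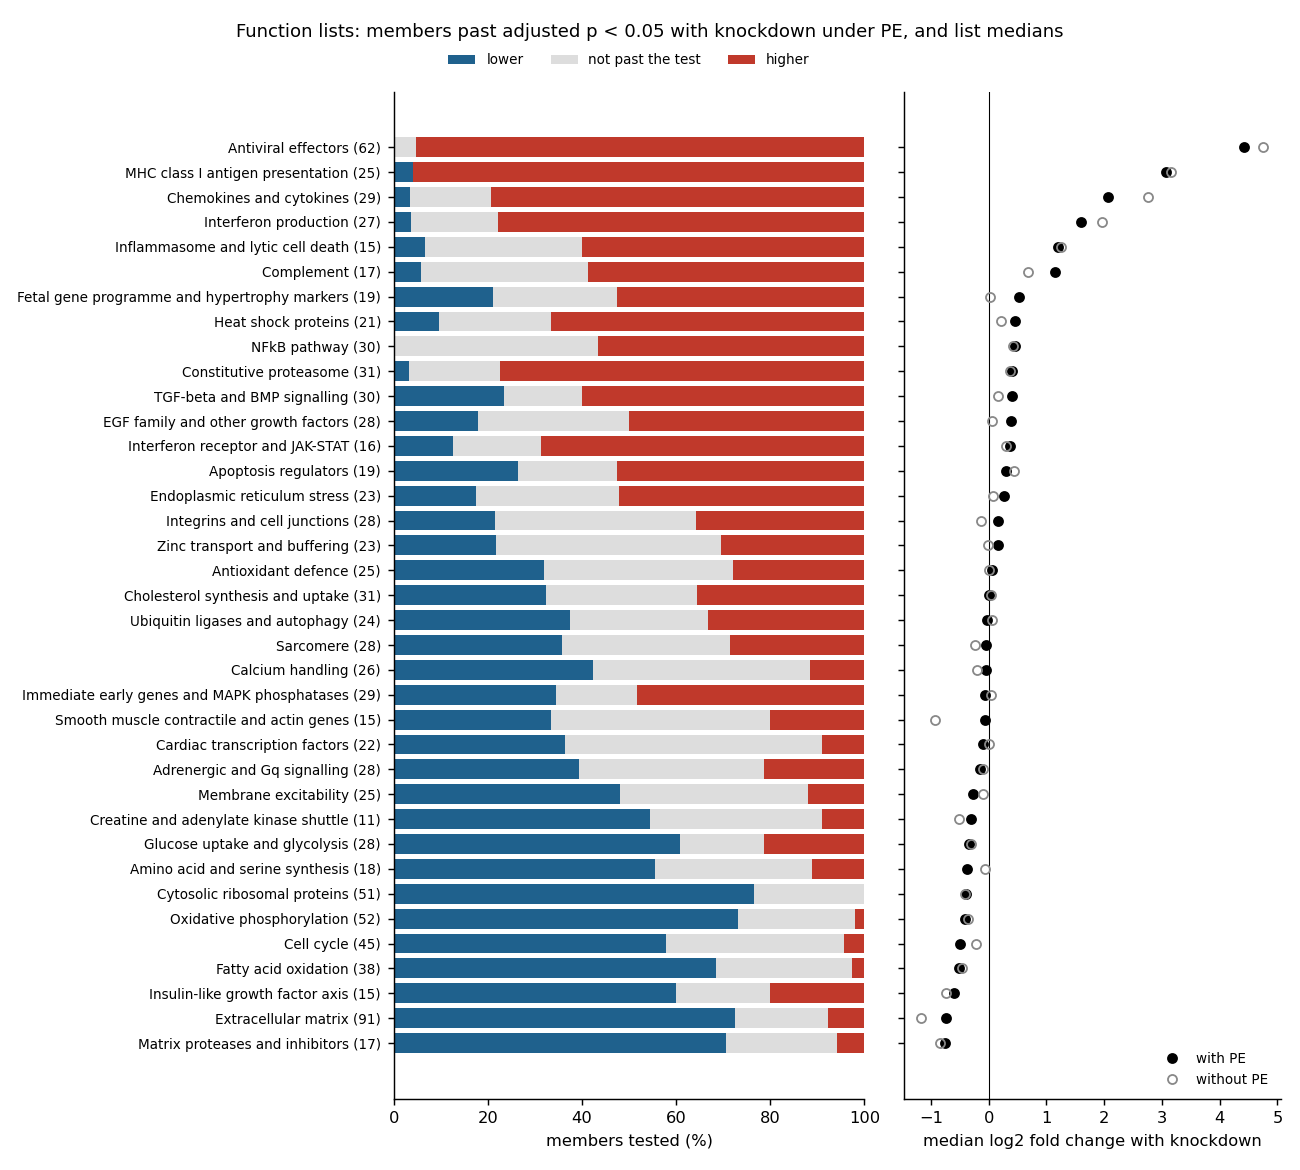
Left, share of the tested members of each function list (number in brackets) that were lower, higher or not past adjusted p under 0.05 with knockdown under PE. Right, median log2 fold change of each list with PE (filled) and without PE (open); the antiviral effectors lie highest at 4.42 and 4.76, and the smooth muscle contractile and actin genes lie near 0 with PE and at -0.92 without.

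Energy metabolism genes fell together by small amounts. Of 38 fatty acid oxidation genes 26 fell and 1 rose (median -0.50), of 52 oxidative phosphorylation genes 38 fell and 1 rose (-0.41), and of 28 glycolysis genes 17 fell and 6 rose (-0.34). The shares over all genes were 28.1% lower and 29.2% higher. The log2 fold change was -0.71 for Cpt1b (shared reads), the carnitine transferase that admits fatty acids to mitochondria, -2.72 for the uncoupling protein Ucp3 and -0.42 for Cox4i1, a subunit of complex IV. Glucose transporters changed in opposite directions: the insulin-responsive Slc2a4 fell from 50.4, 48.9 and 48.8 to 18.7, 18.9 and 16.9 CPM (-1.44 ± 0.088, adjusted p = 3.9e-08) and the basal transporter Slc2a1 rose from 57.1, 55 and 58.1 to 86.5, 83.5 and 78.4 CPM (0.54 ± 0.070, adjusted p = 3.34e-05). Ckm, muscle creatine kinase, fell by 1.21 on the log2 scale. Ppargc1a, a regulator of mitochondrial genes, did not pass the test (-0.07 ± 0.11, adjusted p = 0.618).

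Ribosomal protein genes also fell in 39 of 51 and rose in none, against 28.1% and 29.2% of all genes. Their median was -0.39, and 38 of the 51 have shared reads. Cell cycle genes fell in 26 of 45 and rose in 2 (median -0.49), against 28.1% and 29.2% of all genes. Ccnd1, the cyclin of early G1, was an exception and rose from 40.4, 49.7 and 65 to 110.0, 115 and 128 CPM (1.18 ± 0.13, adjusted p = 9.15e-06), while E2f1 and Ccnb1 fell, with log2 fold changes of -1.12 and -0.51. Ccnb1 was not past the threshold without siNeg PE replicate 2 (0.0644), siNeg PE replicate 3 (0.0694) or siSlc39a2 PE replicate 2 (0.0736). Mki67 and Top2a did not pass the test (adjusted p = 0.111 and 0.155), but did with lower levels without siNeg PE replicate 1 (0.0403) and siSlc39a2 PE replicate 3 (0.0212), respectively.

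The stress lists differed in their counts. Of 21 heat shock protein genes 14 rose, 3 past both thresholds, and 2 fell, with a median of 0.46. The shares over all genes, for this list and those that follow here, were 29.2%, 6.03% and 28.1%. The chaperone Hspa5 (BiP) rose from 557, 578 and 647 to 1130, 1174 and 1314 CPM (1.02 ± 0.081, adjusted p = 4.69e-07) in an endoplasmic reticulum list with 12 of 23 genes higher and 4 lower, whereas Xbp1 did not pass the test (-0.05 ± 0.070, adjusted p = 0.599). Amino acid and serine synthesis genes, targets of ATF4, fell in 10 of 18 and rose in 2, with Psat1 at -0.68 ± 0.074 (adjusted p = 8.6e-06) and Asns at -0.30 ± 0.090 (adjusted p = 0.0117), the latter not past the threshold without siNeg PE replicate 1 (0.0552) or siSlc39a2 PE replicate 3 (0.0538). Of 25 antioxidant genes 7 rose and 8 fell, near the shares of all genes: Nqo1, a quinone reductase under NRF2, fell from 242, 256 and 269.6 to 110.5, 96 and 102 CPM (-1.31 ± 0.086, adjusted p = 7.37e-08), while heme oxygenase Hmox1 rose (0.58 ± 0.11, adjusted p = 0.000558).

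Of 23 zinc genes tested 7 rose and 5 fell, against 29.2% and 28.1% of all genes, and past both thresholds were only Slc39a2 and Mt3, the latter at under 1 CPM in every PE sample. Slc39a1, a second plasma membrane importer, fell (-0.31 ± 0.087, adjusted p = 0.0078), and Slc39a6, Slc39a10 and Slc39a14 did not pass the test (adjusted p = 0.809, 0.0669 and 0.168; the last pair with shared reads). Among targets of MTF1, Mt1 did not pass the test, at 5.93, 4.92 and 2.97 and at 5.52, 4.45 and 4.36 CPM (0.05 ± 0.22, adjusted p = 0.859). Mt2A rose by 0.90 (shared reads) and the exporter Slc30a1 by 0.25 (adjusted p = 0.0357). Counts of RNA do not measure free zinc, and its part in these values was not tested. Mt3 was not past the threshold without siNeg PE replicate 1 (0.0688) and Slc30a1 not without siNeg PE replicate 1 (0.0731), siNeg PE replicate 2 (0.0676), siNeg PE replicate 3 (0.0919), siSlc39a2 PE replicate 2 (0.0657) or siSlc39a2 PE replicate 3 (0.159), while Slc39a10 was past it without siNeg PE replicate 3 (0.0394) or siSlc39a2 PE replicate 1 (0.0132).

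Among the 10 genes that fell most, by the same limits as for those that rose, were Pnoc, Igfbp5, Islr2, Dlgap3, Fcgbp, Fndc1 and Slc6a13. Pnoc, the precursor of the opioid-like peptide nociceptin, fell from 9.84, 12.4 and 12.4 to 0.597, 0.552 and 0.909 CPM, 16.7-fold (-4.06 ± 0.32, adjusted p = 3.74e-07), after a log2 rise of 6.57 by PE in siNeg cells.

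The last question was which effects depended on the stimulus. Of the 1621 genes past both thresholds with PE, 965 were also past both without PE, all in the same direction, which is 59.5% of the former and 70.6% of the 1366 genes past both without PE. The 2 knockdown effects share no samples. Their difference was tested directly: the effect was more positive with PE for 241 genes (1.73%) and more negative for 263 (1.88%). The latter count was 448 with DESeq2 and 469 with limma on log2(FPKM + 1). Of the 656 genes past both thresholds only with PE, 96 had a called difference.

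These counts depended on single libraries. The more positive count was 134 without siNeg replicate 2, 150 without siNeg PE replicate 1, 128 without siNeg PE replicate 2, 145 without siSlc39a2 PE replicate 2, and 127 and 135 without siSlc39a2 replicates 1 and 2. The more negative count was then 135, 152, 139, 136, 128 and 140.

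**Figure D5:**
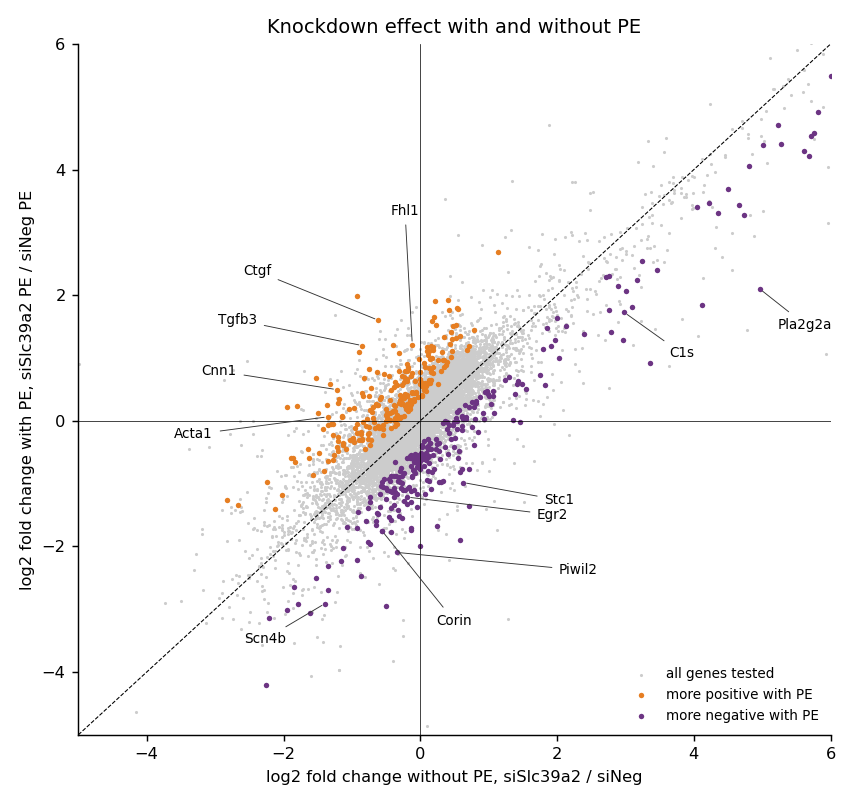
Log2 fold change with knockdown with PE (vertical axis) against that without PE (horizontal axis), 1 point per gene, with genes whose 2 effects differ at adjusted p under 0.05 in orange (241, more positive with PE) or purple (263, more negative). Most genes lie along the dashed line of equal effects; Ctgf and Tgfb3 change sign, and Scn4b, Corin and Piwil2 lie below the line. The axes leave out 102 genes outside -5 to 6.

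The innate lists held no gene whose effect was more positive with PE. Over all genes the share was 1.73%. Of 62 antiviral effectors 11 had a more negative difference, Mx1 and Oas1a among them (both with shared reads), and of 17 complement genes 6 did, against 1.88% of all genes. C1s rose by 1.73 with PE and by 2.98 without (difference -1.26 ± 0.13, adjusted p = 0.000213), and Cfb by 4.22 and 5.69 (-1.47 ± 0.30, adjusted p = 0.0174). All of these genes still rose under PE except C3, which fell by more with PE than without. Isg15 and Irf7 were on the same side and short of the threshold (adjusted p = 0.0506 and 0.0685). The difference was not past the threshold for Cfb without siNeg PE replicate 1 (0.0515), siNeg PE replicate 3 (0.0517) or siNeg replicate 2 (0.0654), for Oas1a without siNeg PE replicate 1 (0.0611), siSlc39a2 PE replicate 2 (0.0515) or siSlc39a2 replicate 1 (0.0545) and for Mx1 without siNeg PE replicate 2 (0.0706), siNeg PE replicate 3 (0.0622), siNeg replicate 1 (0.0701), siNeg replicate 2 (0.101), siSlc39a2 PE replicate 2 (0.0603) or siSlc39a2 replicate 1 (0.0685). For C3 it was lost without 10 of the 12 samples in turn, with adjusted p up to 0.127.

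Actin cytoskeleton genes showed the reverse. Of 15 smooth muscle contractile and actin genes 8 had a more positive difference and none a more negative one, against 1.73% and 1.88% of all genes. Their median was -0.92 without PE and -0.055 with PE. Markers of smooth muscle and pericytes, 9 genes of which 4 also stand in that list, moved alike: 8 of 9 were lower without PE (median -0.95), and 4 had a more positive difference and none a more negative one. They summed to 2597 to 2723 CPM in siNeg, 1096 to 1173 CPM in siSlc39a2, 1750 to 2165 CPM in siNeg PE and 1731 to 1850 CPM in siSlc39a2 PE, with none at 0 in any sample, and their part in the result was not tested. Cnn1 (calponin) fell by 1.22 without PE and rose by 0.50 with PE (difference 1.71 ± 0.12, adjusted p = 1.2e-05). Tagln fell by 1.30 without PE and was at -0.05 ± 0.083 with PE (difference 1.25 ± 0.12, adjusted p = 8.48e-05), and Acta2 fell by 1.42 without PE and was at -0.14 ± 0.082 with PE (difference 1.29 ± 0.12, adjusted p = 6.88e-05, shared reads). Without siNeg PE replicate 1 (0.0304) Acta2 was past the threshold, lower, with PE too. Acta1, the skeletal actin of the hypertrophy list, fell by 1.35 without PE and did not pass the test with PE (difference 1.42 ± 0.13, adjusted p = 6.88e-05, shared reads). Srf, the transcription factor common to actin genes, fell by 0.44 without PE and was at 0.02 ± 0.054 with PE (difference 0.46 ± 0.077, adjusted p = 0.00551); it was chosen after its values were seen.

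Growth factor and matricellular genes joined this group. In the matrix list 13 of 91 had a more positive difference and none a more negative one, against 1.73% and 1.88% of all genes. Ctgf fell by 0.61 without PE and rose by 1.60 with PE, the most positive difference among genes within the limits of level and shared reads (2.22 ± 0.18, adjusted p = 3.4e-05). Tgfb3 fell by 0.85 without PE and rose by 1.20 with PE (2.04 ± 0.10, adjusted p = 5.2e-07). Its levels were 162 to 189.6 CPM in siNeg, 95.1 to 101 CPM in siSlc39a2, 82.1 to 94.7 CPM in siNeg PE and 197 to 203 CPM in siSlc39a2 PE, so that the level was lower with the knockdown alone and with PE alone than in siNeg, and not with both together. Hbegf, a ligand of the EGF receptor, fell by 0.75 without PE and rose by 0.40 with PE (1.14 ± 0.11, adjusted p = 0.000139). Bean1, St8sia2, Tnfrsf11b (osteoprotegerin) and Ptgis (prostacyclin synthase) had differences between 1.91 and 2.20. In the hypertrophy list no difference was called for Nppb, Nppa or Ankrd1, and that of Corin was more negative with PE. Xirp2, Fhl1, Rcan1 and Csrp3 rose by more with PE than without. That difference was not past the threshold for Rcan1 without siNeg PE replicate 2 (0.0562), siSlc39a2 PE replicate 1 (0.0657), siSlc39a2 PE replicate 2 (0.0531) or siSlc39a2 replicate 3 (0.0543), for Xirp2 without siNeg replicate 1 (0.0607), siNeg replicate 2 (0.0967), siNeg replicate 3 (0.0667), siSlc39a2 PE replicate 2 (0.0907), siSlc39a2 PE replicate 3 (0.0722), siSlc39a2 replicate 1 (0.0843), siSlc39a2 replicate 2 (0.0996) or siSlc39a2 replicate 3 (0.0776), and for Csrp3 without 10 of the 12 samples in turn (adjusted p up to 0.105). Fhl1 was at 244 to 273 CPM in siNeg and 223 to 245 CPM in siSlc39a2 (adjusted p = 0.402), and its rise with knockdown under PE differed from that by 1.33 ± 0.16 (adjusted p = 0.000558).

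In 4 further lists more negative differences numbered 4 of 25 excitability genes, 3 of 28 adrenergic and Gq genes, 6 of 29 immediate early genes and 2 of 26 calcium genes. More positive ones numbered 0, 0, 1 (Myc) and 2 in the same order, so the calcium genes had as many of each direction. The shares over all genes were 1.88% more negative and 1.73% more positive. Scn4b had a log2 fold change of -1.39 without PE and -2.91 with PE (difference -1.52 ± 0.11, adjusted p = 2.13e-05), and Atp2a2 of -0.29 and -0.79 (-0.50 ± 0.11, adjusted p = 0.0273). Adrb1 was at 0.09 ± 0.078 without PE and fell by 0.63 with it (-0.72 ± 0.11, adjusted p = 0.0034). Egr2 was at -0.19 ± 0.14 without PE and fell by 1.21 with it (-1.02 ± 0.19, adjusted p = 0.00924), and Egr3, Dusp2 and Dusp5 also had a negative difference. It was not past the threshold for Atp2a2 without siNeg replicate 2 (0.0706), siSlc39a2 PE replicate 2 (0.0818), siSlc39a2 replicate 1 (0.0798) or siSlc39a2 replicate 2 (0.0591), for Egr3 without siNeg PE replicate 1 (0.0579), siNeg PE replicate 2 (0.0619), siNeg replicate 3 (0.0606), siSlc39a2 PE replicate 2 (0.0735), siSlc39a2 replicate 1 (0.0731) or siSlc39a2 replicate 2 (0.0564) and for Dusp2 without siNeg replicate 2 (0.0547) or siSlc39a2 replicate 1 (0.0552). Of 18 amino acid synthesis genes 5 had a more negative difference, Psat1 and Mthfd2 among them, and none a more positive one, against the same shares.

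The 6 most negative differences within the limits were those of Pla2g2a, Htr3a, Reg3b, Piwil2, Id4 and Stc1. Pla2g2a, a secreted phospholipase of inflammation, rose by 4.96 without PE and by 2.10 with it (-2.86 ± 0.38, adjusted p = 0.00115). Stc1, a secreted glycoprotein hormone, rose by 0.63 without PE and fell by 0.98 with it (-1.61 ± 0.18, adjusted p = 0.000438). Reg3b, a secreted lectin, did not pass the test without PE (0.24 ± 0.13, adjusted p = 0.152) and fell by 1.67 with it (-1.91 ± 0.19, adjusted p = 0.00015).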

How the data were processed

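RNA of 12 NRVM samples in 4 groups of 3 was sequenced. The authors deposited expected counts and FPKM per gene. Their processing notes name HISAT, Bowtie2 and Rnor_6.0 without versions; the counting program and annotation are not given in the sources used here. Samples were grouped by their labels. Of the expected counts, 78.7% were whole, and 69.6% of tested genes were whole in all 6 PE samples. Symbols turned into dates were restored from gene IDs through RefSeq (GRCr8).

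Expected counts were rounded, filtered with filterByExpr (13967 of 18483 genes kept), scaled by TMM and fitted with edgeR 4.0.16 in R 4.3.3 (quasi-likelihood F-test, 4 groups, 8 residual degrees of freedom, Benjamini-Hochberg adjustment). Calls were made at adjusted p under 0.05, and past both thresholds also at an absolute log2 fold change over 1. The study's methods use limma on normalised values; that was an alternative here (limma 3.58.1), as were DESeq2 1.42.0, RLE scaling, no filter, other pseudocounts, a replicate block, the 6 PE samples alone and leaving out each sample. The procedure was tested on simulated counts.

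Function and marker lists were written by hand from general knowledge. The comparison, the lists and the named genes were chosen with earlier results of these data known. Named were Slc39a2, key members of the lists, up to 4 list members with the largest change past both thresholds, the 10 highest and 10 lowest genes and the 6 most positive and 6 most negative differences (mean level above 1 log2 CPM, whole counts; groups without overlap for the 10 highest and lowest). Some genes that this rule names are not reported here. Other genes are said to be chosen after their values were seen. Where a gene had no read in a group, the fold is a bound against 3 counts per library (0.109 CPM in siNeg PE), which covers counting error only. Promoters came from RefSeq.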

Additional observations from a re-analysis of the deposited data

Results flagged for a closer look

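The effect of knockdown differed between cells with and without PE for 504 genes, by the edgeR test of the difference itself with adjustment over all genes. It was more positive with PE for 241 genes and more negative for 263. Among the 241, 81 rose with PE and were not past the threshold without it (33.6%), 66 fell without PE and were not past it with PE (27.4%), and 36 rose with PE and fell without (14.9%). Among the 263, 82 fell with PE and were not past the threshold without it (31.2%), and 67 rose in both (25.5%).

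For the genes described above that passed this test, the log2 fold change with PE minus that without PE was as follows. In hypertrophy and actin genes it was 1.53 for Xirp2, 1.33 for Fhl1, 0.44 for Rcan1, 0.56 for Csrp3, 1.42 for Acta1, 1.71 for Cnn1, 1.25 for Tagln, 1.29 for Acta2, 0.57 for Actc1 and 0.46 for Srf, but -1.19 for Corin. In matrix and growth factor genes it was 2.22 for Ctgf, 2.04 for Tgfb3, 1.43 for Tgfb2, 1.14 for Hbegf and 0.71 for Col4a1. Other genes more positive with PE were Bean1 at 2.20, St8sia2 at 2.17, Tnfrsf11b at 1.99, Ptgis at 1.91 and Myc at 0.51.

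In innate immune and cell death genes the difference was -1.16 for Mx1, -0.97 for Oas1a, -0.44 for Stat2, -0.52 for Usp18, -0.56 for Socs3, -1.23 for Cd74, -0.78 for Bcl2l11, -1.47 for Cfb, -1.26 for C1s and -0.90 for C3. In genes of calcium handling, excitability and adrenergic signalling it was -0.50 for Atp2a2, -0.55 for Hrc, -1.52 for Scn4b, -1.61 for Kcnd2, -0.51 for Gja1, -0.68 for Adra1b and -0.72 for Adrb1. In early response genes it was -0.82 for Fos, -1.02 for Egr2, -1.16 for Egr3, -1.58 for Dusp2 and -0.79 for Dusp5, and in ATF4 targets -0.63 for Psat1 and -0.57 for Mthfd2. Other genes more negative with PE were Pla2g2a at -2.86, Htr3a at -2.08, Reg3b at -1.91, Piwil2 at -1.75, Id4 at -1.67, Stc1 at -1.61, Fcgbp at -1.45, Slc6a13 at -1.13 and Dlgap3 at -0.93.

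Of these 54 genes, 20 lost the call when single samples of the 12 were left out. The number of samples whose removal ended it is given in brackets: Dusp2 (2; adjusted p up to 0.0552), Cfb, Oas1a (3; adjusted p up to 0.0654), Atp2a2, Rcan1 (4; adjusted p up to 0.0818), Usp18 (5; adjusted p up to 0.0683), Egr3, Mx1, Stat2 (6; adjusted p up to 0.101), Fos, Myc (7; adjusted p up to 0.0786), Adra1b, Fcgbp, Slc6a13, Xirp2 (8; adjusted p up to 0.128), Cd74, Dlgap3, Hrc (9; adjusted p up to 0.12) and C3, Csrp3 (10; adjusted p up to 0.127).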

How the results depend on the processing

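Slc39a2 stayed lower and past the threshold under all 8 alternatives (-2.34 to -1.55 on the log2 scale) and without each PE sample (-2.59 to -2.17). The 842 higher genes became 362 and the 779 lower genes 312 with limma on log2(FPKM + 1), a scale that shrinks the change of low genes. Under the other alternatives they were 623 to 924 and 667 to 840, the lowest of each with limma on log2(FPKM + 0.1). Without single PE samples they were 678 to 1042 and 749 to 795. The difference between cells with and without PE was less settled. The more positive count was 536 and the more negative count 517 with a replicate block, and the latter was 448 with DESeq2 and 469 with limma on log2(FPKM + 1). Without single samples they were 127 to 267 and 128 to 344; the cause was not tested.

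Replicate numbers were not taken to pair the samples, since in none of the 6 pairs of groups did every same-numbered pair correlate over 0.1. Deviations of same-numbered siNeg PE and siSlc39a2 PE samples correlated at 0.32, 0.00387 and 0.122, those of siNeg and siNeg PE at 0.315, 0.0535 and 0.206, and 8 of all 18 such pairs were over 0.1; replicate 2 of siNeg PE correlated best with another number. The counts under the block with PE were 838 higher and 789 lower.

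Over 180 genes named for the effect with PE, 2434 of 2517 recomputed values kept their direction and side of the threshold, 46 lost the threshold, 33 gained it and 4 changed direction. For 54 genes named for the difference the numbers were 859 of 1026 kept, 163 lost and 4 changed direction. Those that changed were Actc1, the highest value and so set to 0 by quantile normalisation of FPKM in both comparisons and at -0.67 for the difference with limma on log2(expected count + 1), Pln at 0.24 and 0.24 with limma on log2(FPKM + 1) and log2(FPKM + 0.1), and the difference of Dlgap3, at 0.23 with limma on log2(FPKM + 1). With limma the share of higher genes among those past the threshold was 44.4% to 45.1%, against 50.9%. The number of replicates limits the precision of small changes, and genes near 0 CPM have wide errors.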
